A study of Mus musculus with 6 samples.

Results

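The genes of glucose breakdown and of the response to low oxygen were followed through leukocytes and accompanying cells of the irradiated mouse heart. The set was chosen by symbol and holds 33 of the 32285 genes listed in the deposited single-cell tables: 3 transporters of glucose and lactate, 11 genes from the hexokinases to Tpi1, 9 genes of lower glycolysis and lactate dehydrogenase, and 10 genes of oxygen sensing and its targets. All 33 symbols were found, and Aldoa had a second row with 2 UMIs (unique molecular identifiers, each counting 1 captured transcript), which was left out beside its main row of 79049 UMIs. Cells sorted as CD45+ were taken from hearts at day 28 after treatment with a small-animal irradiator. The TmemRT group (2 libraries) came from C57Bl6J Tmem mice, labelled STING KO, given 1 fraction of 12 Gy. The RT group (2 libraries) came from wild-type C57Bl6J mice given the same dose, and the Sham group (2 libraries) from wild-type C57Bl6J mice given a sham treatment. A sham-treated STING KO group was not analysed here, so every statement on the TmemRT libraries concerns irradiated hearts. The labels give neither the age of the mice nor the number of animals behind a library.

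Glycolysis splits glucose into pyruvate, and lactate dehydrogenase turns pyruvate into lactate, which monocarboxylate transporters carry across the membrane. When oxygen is low, the prolyl hydroxylases encoded by Egln1 and Egln3 mark the HIF alpha subunits less for destruction. The stabilised subunit pairs with Arnt and binds short DNA elements at many glycolytic genes and at Adm, Ankrd37, Bnip3 and P4ha1. In the heart the capillary endothelium sits between blood and muscle, while resident and recruited macrophages line the vessels and the interstitium. Macrophages are known to lean on glycolysis when activated, and endothelial cells are known to be glycolytic even in well-oxygenated tissue.

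The promoters of the 3 members that were higher after irradiation in both macrophage-like and endothelial-like cells (Ldha, Pgam1 and Mif, below) are shown because HIF binds to such regions. Each is the 250 bases before the start of the RefSeq entry in build GRCm38.p6, written 5′ to 3′ on the gene's strand in lower case. Capitals mark the core letters ACGTG or GCGTG of the hypoxia response element on either strand (CACGT or CACGC when read on the other strand). Ldha, on chr7:46845554-46845803 on the plus strand, has 2 listed starts, of which 1 is shown. The Pgam1 window is chr19:41911621-41911870 on the plus strand, and the Mif window is chr10:75860278-75860527 on the minus strand.
Ldha: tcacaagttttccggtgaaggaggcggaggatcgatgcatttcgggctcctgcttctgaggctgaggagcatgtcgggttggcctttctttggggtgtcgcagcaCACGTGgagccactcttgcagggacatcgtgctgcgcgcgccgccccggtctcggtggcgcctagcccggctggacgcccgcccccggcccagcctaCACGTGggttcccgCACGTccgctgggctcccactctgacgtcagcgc
Pgam1: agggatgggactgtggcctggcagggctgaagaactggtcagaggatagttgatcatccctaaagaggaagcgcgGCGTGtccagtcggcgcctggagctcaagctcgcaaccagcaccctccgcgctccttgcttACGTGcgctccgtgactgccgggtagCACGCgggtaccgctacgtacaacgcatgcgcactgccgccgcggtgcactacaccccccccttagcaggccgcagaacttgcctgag
Mif: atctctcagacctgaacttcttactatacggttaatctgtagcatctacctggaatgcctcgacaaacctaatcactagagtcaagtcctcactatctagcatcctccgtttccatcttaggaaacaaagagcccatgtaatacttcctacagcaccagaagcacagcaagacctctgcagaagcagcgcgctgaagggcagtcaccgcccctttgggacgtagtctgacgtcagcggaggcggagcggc
With overlapping matches counted separately, so that CACGTG counts on both strands, the Ldha window held 5 matches, the Pgam1 window 3 and the Mif window 0. Of the 31 members with a promoter in the table, 25 (80.6%) held at least 1 match, against 10431 of 27025 genes (38.6%). Bnip3l and Ndrg1 had no entry. The members were chosen as genes of glycolysis and the hypoxia response, so their higher share of matches is no independent finding. A match is a description of the letters and not a measured binding site.

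Depth and cell identity were checked first. The tables held 45904 barcodes, of which 31279 were kept (3394 to 6014 per library), and 3 to 29 kept barcodes were shared between pairs of libraries. The median kept cell carried 6198 to 6801.5 UMIs in the TmemRT libraries, 5522.5 to 6354.5 in the RT libraries and 4400 to 4583.5 in the Sham libraries, so the Sham cells were the shallowest. The gene that encodes STING, Tmem173, had 40.8 and 43.0 CPM (counts of the gene scaled to 1e6 UMIs of the library) over all cells of the TmemRT libraries, against 45.7 and 41.9 CPM in the RT libraries, a log2 difference of -0.20 ± 0.09 (SE, edgeR adjusted p = 0.368). Its transcript therefore did not separate the labelled genotypes, and 3' tags may lie outside the altered part of the gene. The group is called by its library label, TmemRT, and directions drawn from it rest on that label. Macrophage-like cells numbered 8422 and carried 7143741 to 14049968 UMIs per library, and endothelial-like cells numbered 2079 with 1942946 to 6759020 UMIs per library. Their own markers were present, with 12 macrophage markers summing to 21928 to 23985 CPM in macrophage-like cells and 15 endothelial markers to 22480 to 24542 CPM in endothelial-like cells. The reverse sums, which show how much RNA of the other type each class carried, were 295 to 675 CPM of macrophage markers in endothelial-like cells and 61.8 to 139 CPM of endothelial markers in macrophage-like cells. Neutrophil markers are not in these sums and are given for endothelial-like cells with Slc16a3 below. The endothelial-like cells came through a sort on a leukocyte marker, so they are the endothelial-like cells of this gate and not of the whole heart.

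Levels of the members were compared between the 10 classes with at least 20 cells in every library, as CPM of that class in that library. Because this chemistry counts transcript 3' ends, CPM does not depend on transcript length. The neutrophil-like cells were highest for 10 of the 33 members, and endothelial-like cells for 8. Fibroblast-like and monocyte-like cells led for 4 each, T cell-like cells for 3, and cycling and dendritic cell-like cells for 2 each. Macrophage-like cells led for none of the 33 and were the lowest of the 10 classes for Slc2a1 and Hif1a. The cycling class, which led for Tpi1 and Gapdh, is not free of macrophages. It carried macrophage markers as a second lineage at a ratio of 0.85. For Tpi1 the next class was macrophage-like cells, with overlapping ranges. Cells were grouped with 6 of the members among the variable genes, so the differences between classes are descriptions and carry no test.

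Some members were set apart by 1 cell class, and for most the leading classes overlapped. Slc16a3, the exporter that removes lactate from glycolytic cells, lay between 1403 and 1783 CPM in the neutrophil-like cells of the 6 libraries, and the next class, monocyte-like cells, between 102 and 149.9 CPM. Slc2a1, the basal glucose importer, ranged from 145 to 223 CPM in neutrophil-like cells and from 7.47 to 16.1 CPM in macrophage-like cells. Egln1, the main HIF prolyl hydroxylase, ranged from 159.9 to 179.9 CPM in endothelial-like cells, and fibroblast-like cells came next at 59.9 to 96.5 CPM. The endothelial-like range for Ndrg1, a hypoxia-inducible gene of stress signalling, was 111 to 338 CPM, above the 36.8 to 73.8 CPM of neutrophil-like cells. Eno3, the muscle-type enolase, was found mainly in monocyte-like cells (75.8 to 139 CPM), with dendritic cell-like cells next (0 to 46.0 CPM). Pdk1, the kinase that keeps pyruvate from entering the mitochondrial cycle, lay between 58.8 and 111 CPM in T cell-like cells and between 14.2 and 34.9 CPM in the next class, B cell-like cells. For 20 of the 33 members, by contrast, the ranges of the highest and the next class overlapped: Hk1, Pfkl, Pfkm, Ldha and Bnip3l, although highest on average in endothelial-like cells, were among them. Pgk1, Pgam1 and Eno1, which catalyse successive steps of lower glycolysis, were all highest in monocyte-like cells, but only for Eno1 (294 to 334 CPM) did the range stay clear of the next class, NK cell-like cells (236 to 267 CPM).

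**Figure D1:**
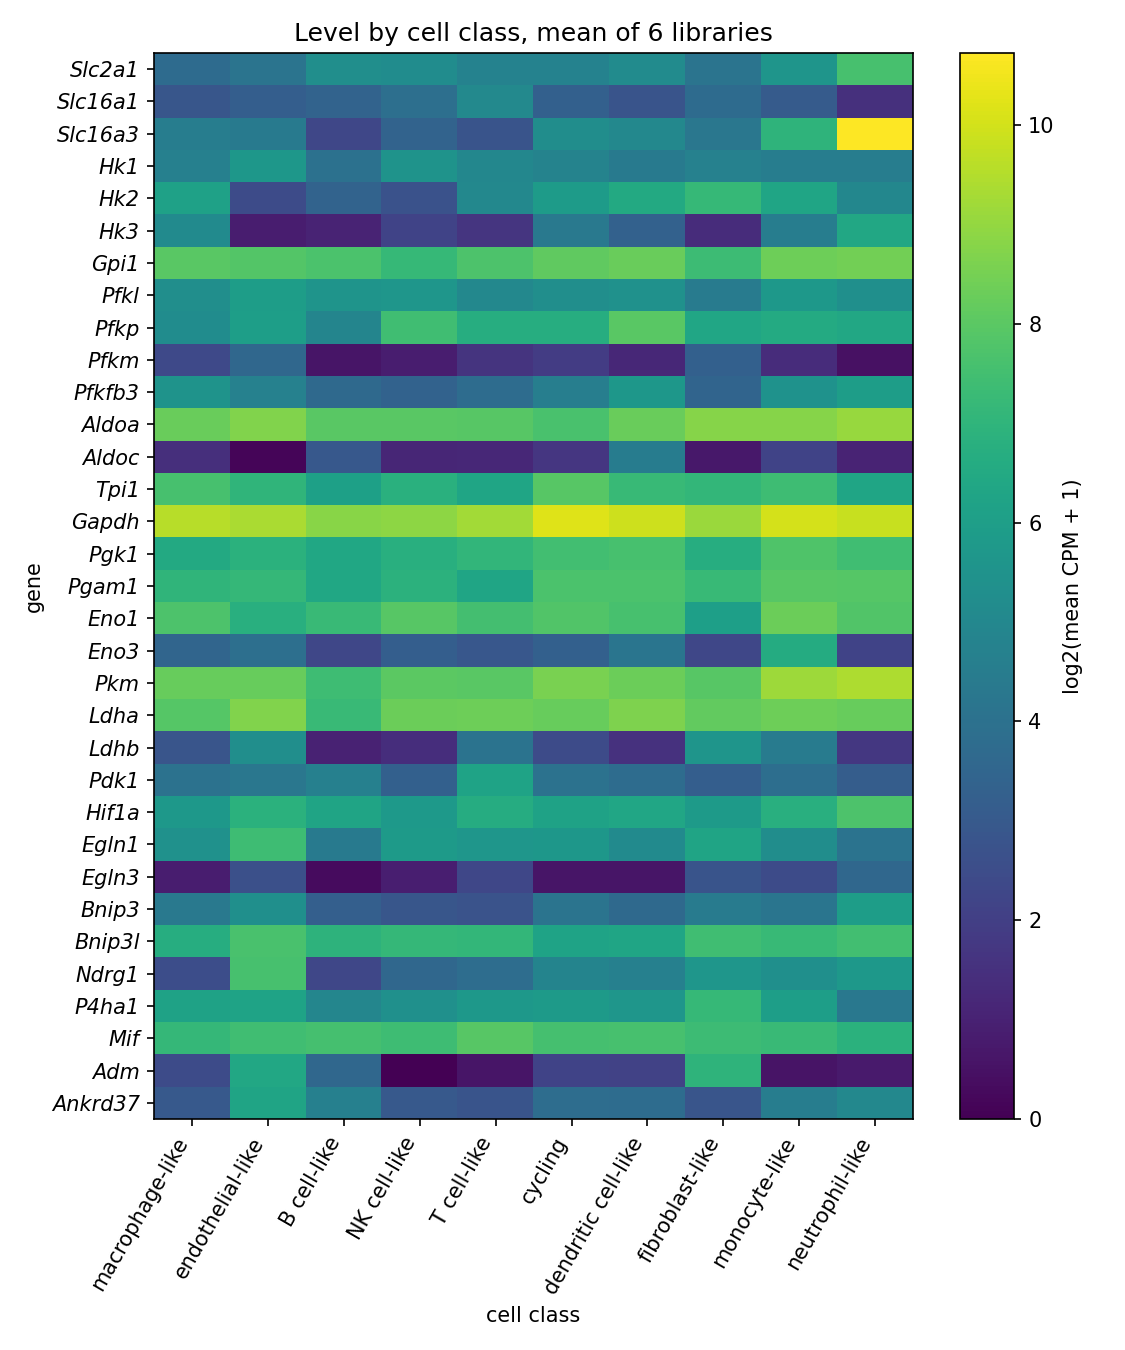
Mean level of each of the 33 members in each of 10 cell classes over the 6 libraries, coloured by log2(mean CPM + 1). The neutrophil-like cells stand out for Slc16a3 (mean 1693 CPM) and the endothelial-like cells for Egln1 (168 CPM) and Ndrg1 (194 CPM).

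Macrophage-like and endothelial-like cells differed in which genes of the pathway were high. In all 6 libraries 7 members were higher in macrophage-like cells, 17 were higher in endothelial-like cells, and 9 changed side between libraries. Higher in macrophage-like cells were Hk2, Hk3, Pfkfb3, Aldoc, Tpi1, Gapdh and Eno1, so this side held the inducible hexokinase Hk2, the myeloid hexokinase Hk3 and Pfkfb3, which makes the allosteric activator of phosphofructokinase. Higher in endothelial-like cells were Hk1, all 3 phosphofructokinase genes, Aldoa, Pgk1, both lactate dehydrogenase genes and 9 of the 10 members of the oxygen-sensing group. The exception in that group was P4ha1, which encodes a collagen prolyl hydroxylase and whose macrophage-like to endothelial-like ratio ran from 0.894 to 1.02.

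The hexokinases showed the sharpest exchange. Hk2 was 11.8 to 33.6 times higher in macrophage-like than in endothelial-like cells, with 59.7 to 84.9 CPM against 1.78 to 7.21 CPM. Hk1, the constitutive form, was 1.74 to 2.37 times higher in endothelial-like cells. As a share of all hexokinase UMIs, Hk2 made up 48.9% to 61.9% in macrophage-like cells and 3.11% to 13.1% in endothelial-like cells, and Hk1 14.6% to 22.0% and 86.0% to 95.9%. Hk3 held 22.2% to 29.3% in macrophage-like cells and 0% to 3.59% in endothelial-like cells (0 to 2.12 CPM), and given the macrophage marker RNA in endothelial-like cells stated above this trace is not read as expression. In neutrophil-like cells Hk3 was the leading form at 58.5% to 68.0%.

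Phosphofructokinase did not show such an exchange. The liver form Pfkl held 45.4% to 54.5% of phosphofructokinase UMIs in macrophage-like cells and 40.4% to 50.0% in endothelial-like cells, and the platelet form Pfkp 39.9% to 48.7% and 42.0% to 50.3%. The muscle form Pfkm stayed under 10% in both classes. Aldoa supplied at least 99.3% of the aldolase UMIs in both. Egln1 likewise supplied at least 96.1% of the Egln1 and Egln3 UMIs in both, although its level was 3.55 to 4.16 times higher in endothelial-like cells.

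Lactate dehydrogenase differed in both level and form. Ldha, whose subunit favours lactate formation, was 1.66 to 1.80 times higher in endothelial-like cells. Ldhb, whose subunit favours the return of lactate to pyruvate, was 4.64 to 9.15 times higher there and held 6.40% to 13.2% of the lactate dehydrogenase UMIs, against 1.95% to 4.25% in macrophage-like cells. The endothelial-like Ldhb share was 7.21% and 7.10% in the TmemRT libraries, 6.45% and 6.40% in the RT libraries and 12.6% and 13.2% in the Sham libraries, so every irradiated library lay below both Sham libraries. The macrophage-like Hk2 share showed the same arrangement at 51.0% and 48.9% in the TmemRT libraries, 52.0% and 52.1% in the RT libraries and 61.9% and 61.3% in the Sham libraries. With 2 libraries a side an exact two-sided permutation test cannot give a p below 0.333, so no test of these shares was made.

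**Figure D2:**
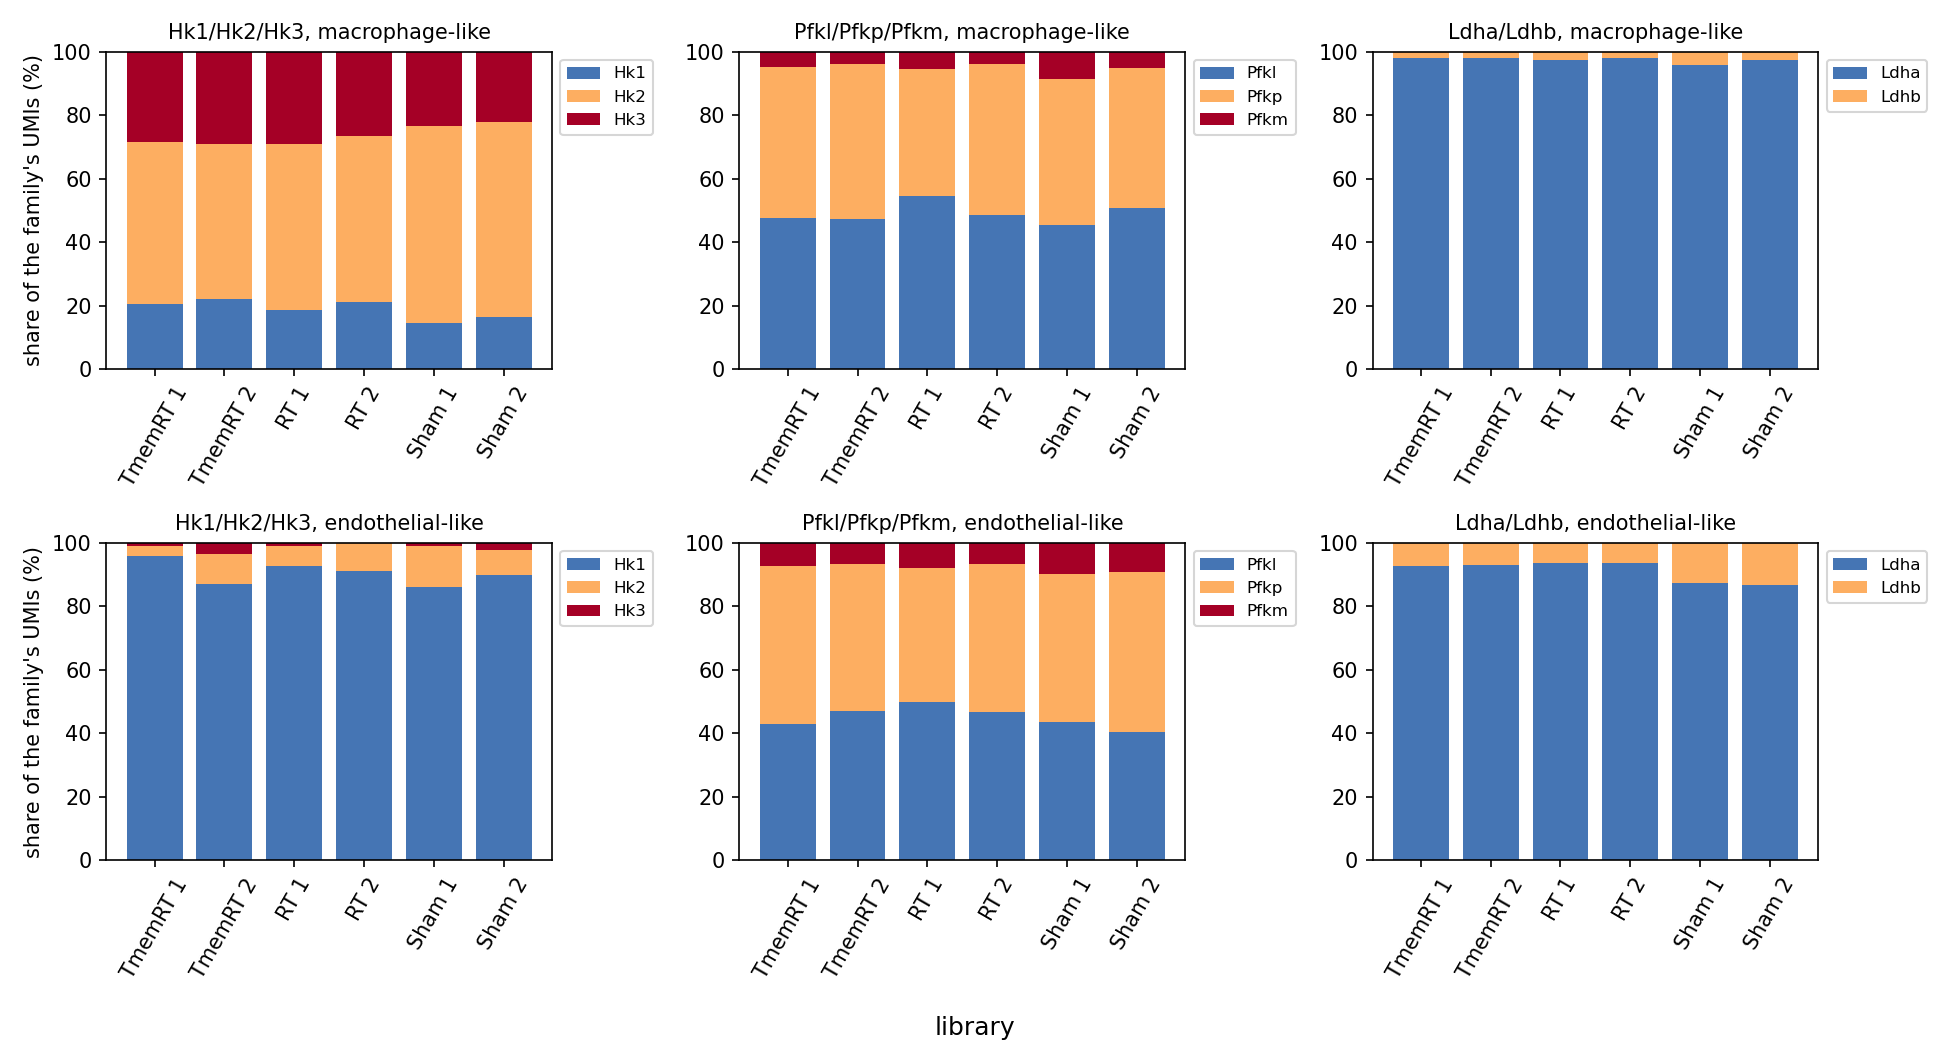
Share of each isoenzyme among the UMIs of its family in macrophage-like and endothelial-like cells of the 6 libraries, in percent. Hk2 makes up 48.9% to 61.9% of hexokinase UMIs in macrophage-like cells and 3.11% to 13.1% in endothelial-like cells, and the endothelial-like Ldhb share is lower in every irradiated library than in both Sham libraries.

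The targets of the hypoxia response ranged from strongly endothelial to nearly level between the classes. Ndrg1 was 20.6 to 115 times higher in endothelial-like cells, Adm, which encodes the vasodilator adrenomedullin, 9.06 to 39.7 times, and Ankrd37, a HIF target of little-known function, 9.58 to 15 times. Bnip3, a mitophagy receptor, was 1.17 to 2.88 times and Mif 1.16 to 1.30 times higher there, and P4ha1, as given above, differed in side by library. Hif1a itself was 1.62 to 2.77 times higher in endothelial-like cells. Summed over the 10 genes of oxygen sensing and hypoxia targets, endothelial-like cells carried 1066 to 1195 CPM and macrophage-like cells 404 to 489 CPM. The summed 9 genes of lower glycolysis and lactate dehydrogenase, by contrast, were nearly level, at 1321 to 2133 CPM in endothelial-like cells and 1316 to 2026 CPM in macrophage-like cells.

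Irradiation was addressed first in macrophage-like cells of wild-type mice, RT against Sham. Of the 32 members that passed the filter on low counts (Egln3 did not), 6 rose and 0 fell: Mif, Gapdh, Pgk1, Pgam1, Eno1 and Ldha. The test was edgeR's quasi-likelihood test on UMIs summed per library, adjusted over 12165 genes, of which 3.71% were called in either direction, 2.33% higher and 1.38% lower. In the group of lower glycolysis and lactate dehydrogenase 5 of 9 rose and the median log2 fold change was 0.48, against -0.00 over all genes tested. The upper pathway from hexokinase to Tpi1 had 0 of 11 called and a median of 0.23, the transporters 0 of 3, and of the 9 oxygen-sensing members tested only Mif was called. Over the 32 members, 24 log2 fold changes were positive and the median was 0.22.

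Mif (ENSMUSG00000033307, chromosome 10, 75859353 to 75860240 on the minus strand, GRCm38), a macrophage cytokine that hypoxia induces, had 150.1 and 145 CPM in the RT libraries and 105 and 102 CPM in the Sham libraries. The pairs did not overlap, and the log2 fold change was 0.51 ± 0.08 (SE, edgeR adjusted p = 0.0209). Pairs of libraries that lie apart are a description and no test of their own, here and for the genes below. Gapdh (ENSMUSG00000057666, chromosome 6, 125161715 to 125166467 on the minus strand), which couples oxidation of the triose to NADH formation, had 835 and 854 CPM in the RT libraries against 567 and 638 CPM in the Sham libraries. Its log2 fold change was 0.49 ± 0.09 (adjusted p = 0.0299). Both groups were again apart, and Gapdh was the most abundant of the 33 members in this class.

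Pgk1 (ENSMUSG00000062070, chromosome X, 106187100 to 106203699 on the plus strand) carries out the first ATP-yielding step. It had 97.3 and 96.3 CPM in the RT libraries against 68.4 and 69.6 CPM in the Sham libraries, for a log2 fold change of 0.49 ± 0.09 (adjusted p = 0.0344). Pgam1 (ENSMUSG00000011752, chromosome 19, 41911923 to 41918660 on the plus strand), the mutase of the following step, had 144 and 143 CPM against 101 and 108 CPM, for a log2 fold change of 0.46 ± 0.09 (adjusted p = 0.0335). Both genes kept RT and Sham libraries apart.

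Eno1 (ENSMUSG00000063524, chromosome 4, 150236721 to 150248879 on the plus strand), the enolase that follows Pgam1, had 236 and 232 CPM in the RT libraries against 155 and 179 CPM in the Sham libraries. The log2 fold change was 0.49 ± 0.10 (adjusted p = 0.0453). Ldha (ENSMUSG00000063229, chromosome 7, 46841475 to 46855627 on the plus strand) had 262 and 270.1 CPM in the RT libraries against 174 and 202 CPM in the Sham libraries, and the log2 fold change was 0.50 ± 0.11 (adjusted p = 0.0453). Eno1 and Ldha thus passed only narrowly, with Sham replicate 1 the lowest library for each. Gene families with processed pseudogenes, among them Gapdh and Eno1, can lose or gain reads between copies in counting.

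Several members lay just past the threshold. Hk2 had 62.7 and 66.0 CPM in the RT libraries against 84.9 and 83.0 CPM in the Sham libraries, for a log2 fold change of -0.38 ± 0.08 (adjusted p = 0.0519). Pfkfb3 had 39.3 and 40.6 CPM against 58.6 and 50.2 CPM (-0.44 ± 0.10, adjusted p = 0.0535), and Pkm, the pyruvate kinase of most non-liver cells, 331 and 336 CPM against 219 and 260.5 CPM (0.48 ± 0.11, adjusted p = 0.0559). None of these reached the call. Their RT and Sham libraries lay apart, but with 2 libraries a side that is no test (smallest exact two-sided permutation p 0.333). How many of all genes lie apart in this way is not given. Hif1a, in contrast, had 49.0 and 52.3 CPM against 51.7 and 48.2 CPM, with a log2 fold change of 0.02 ± 0.09.

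The number of called members in macrophage-like cells depended on single libraries and was lower when any 1 of them was left out. That held for the TmemRT libraries too, which enter through the low-count filter, the size factors and the shared estimate of spread. It was 0 with cells limited to 5% mitochondrial UMIs and 2 with only the 4 RT and Sham libraries fitted. The share of all genes called under each of these settings is not given, so these counts are not a result about the members alone.

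**Figure D3:**
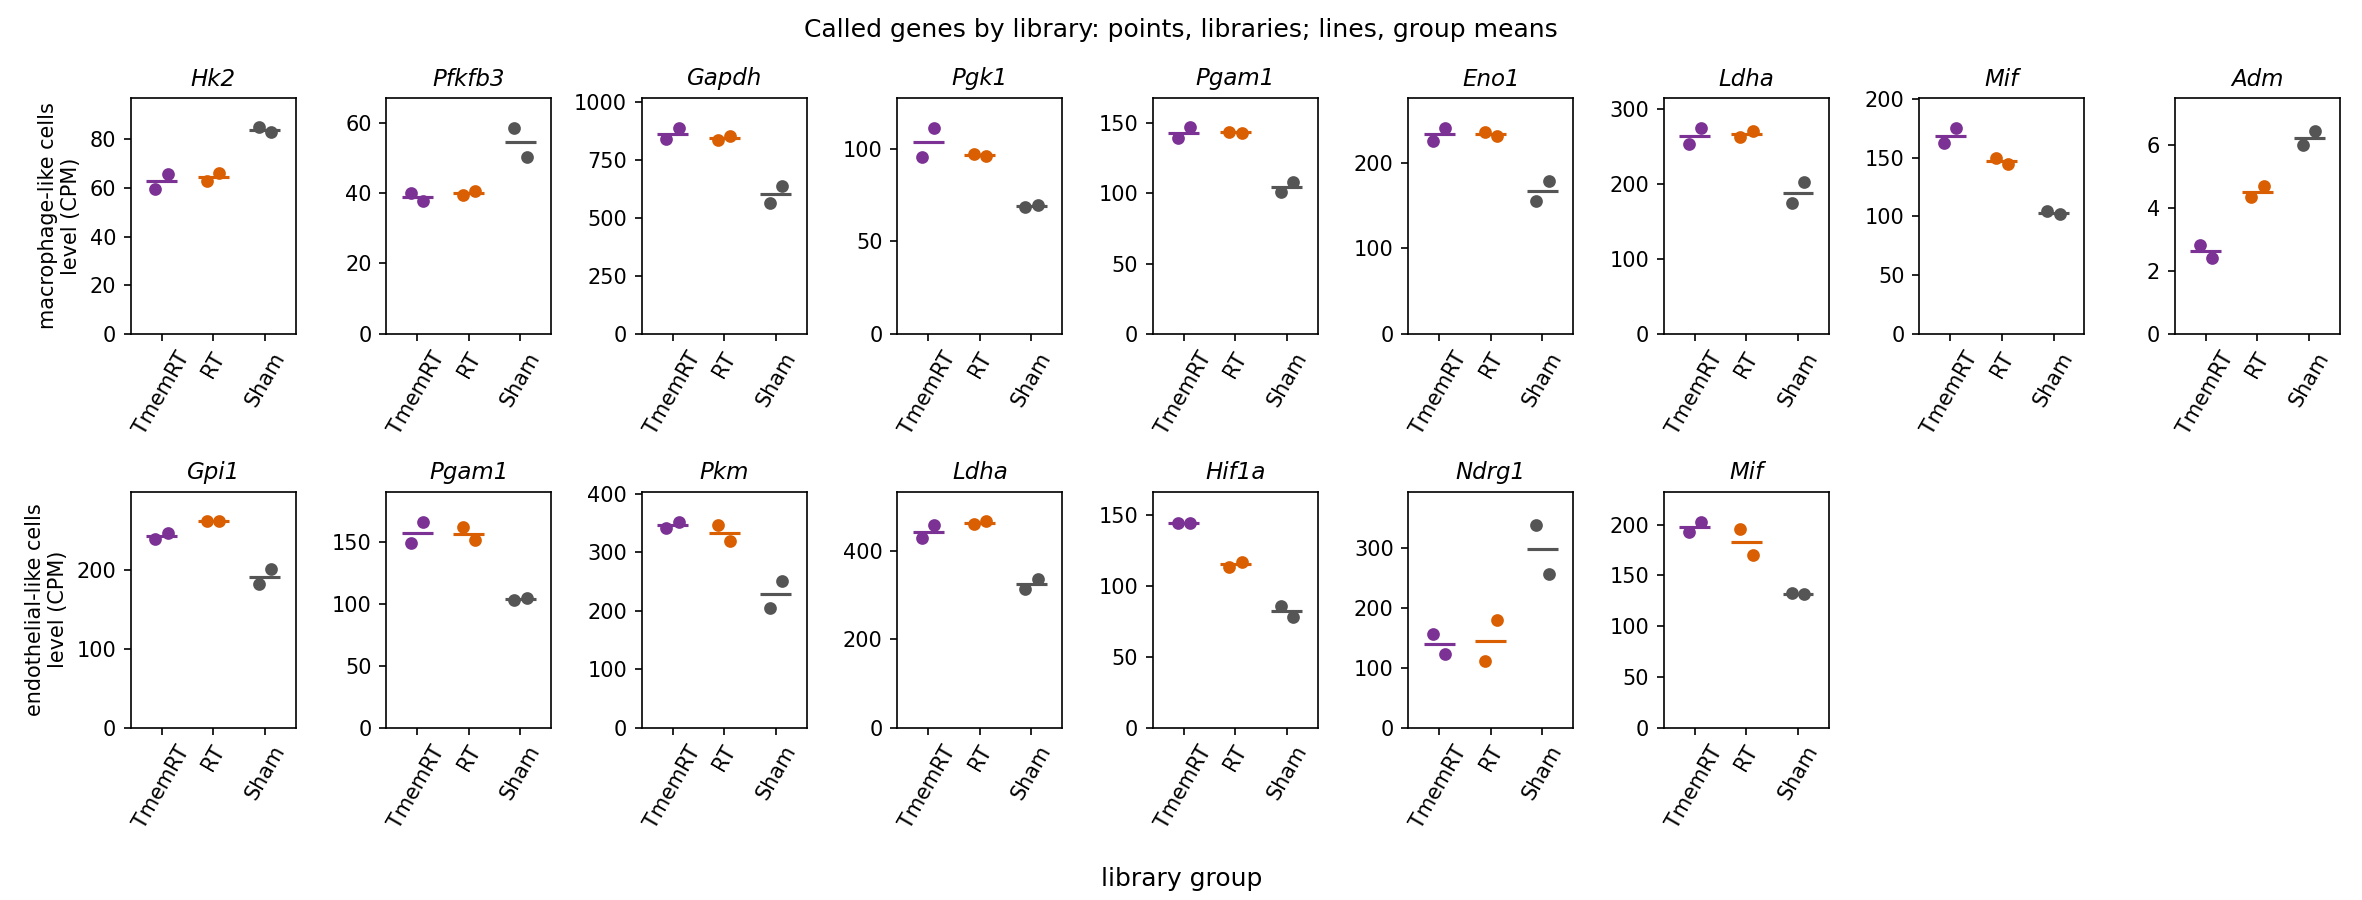
Level of members called in macrophage-like or endothelial-like cells in each library of the TmemRT, RT and Sham groups, in CPM. Each point is 1 library, and for Mif and Ldha both irradiated groups lie above both Sham libraries in both classes.

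Other measures moved with this comparison. Monocyte markers (11 genes) summed to 336 to 424 CPM in the RT macrophage-like cells and 86.3 to 92.0 CPM in the Sham ones, and 5 of them rose (Plac8, Ccr2, Ear2, Ly6c2 and Treml4), with none of the 11 at 0. Interferon-stimulated genes summed to 1687 to 1704 CPM against 491 to 510.0 CPM, and 11 of 11 rose. Genes of dissociation stress summed to 20243 to 24778 CPM against 25948 to 26664 CPM, and 2 of 20 fell (Jun and Socs3). Cycling markers summed to 50.8 to 65.1 CPM against 23.2 to 27.5 CPM. Of the macrophage markers, Csf1r (log2 fold change -0.58) and Mrc1 (-0.46) were called lower and Fcgr1 (0.89) higher. The Ifit3 cluster held 14.8% of macrophage-like cells in the RT group and 1.47% in the Sham group. A cluster led by Prg4 and Saa3, too small to be fitted alone, held 3.64% and 1.57%. It gave 308404 and 842218 UMIs of this class in the RT libraries and 89885 and 611000 in the Sham libraries. The part of these shifts and of the depth difference in the rise of the members was not tested.

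The same comparison was made inside single clusters, each of which was defined over all 6 libraries. In the largest macrophage-like cluster, led by Ms4a7 and Cx3cr1, 7 of 30 members tested rose and Pfkfb3 fell, against 4.49% of genes called (2.42% higher, 2.07% lower). Pkm, which had missed the threshold in the whole class, rose there by 0.66 ± 0.10 on the log2 scale (edgeR adjusted p = 0.00205), Ldha by 0.57 ± 0.09 (adjusted p = 0.00350) and Pgam1 by 0.54 ± 0.10 (adjusted p = 0.00770). The others that rose were Gapdh, Eno1, Mif and Pgk1, and Pfkfb3 changed by -0.63 ± 0.16 (adjusted p = 0.0422). Markers moved inside this cluster too. Its monocyte markers summed to 434 to 569 CPM in the RT libraries and 126 to 159 CPM in the Sham libraries, with Ccr2 called higher of 6 tested, and its interferon-stimulated genes to 625 to 697 CPM and 327 to 347 CPM, with 6 of 11 called higher. Dissociation stress genes summed to 13433 to 14815 CPM and 16602 to 18708 CPM, and 5 of 20 fell. No gene of the monocyte, interferon or stress lists was at 0 in every library, and their part in the members' changes within the cluster was not tested. In the Cd163 and Vsig4, the Ccl8 and Cd209f, and the Ifit3 clusters no member was called by edgeR, against 1.27%, 0.946% and 0.21% of genes. At an unadjusted p under 0.05 these clusters had 9 of 31, 12 of 30 and 10 of 24 members tested. Among all genes tested those were 1310 of 9922, 1363 of 10354 and 621 of 7149. The Mif log2 fold changes there were 0.42, 0.34 and 1.28. Sham cells of the Ifit3 cluster numbered only 21 and 25.

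A cluster of 2644 cells led by Mmp12, Retnla and Ccr2 carried markers of both monocytes and macrophages and was given no name. Of its 32 members tested 4 rose, against 3.37% of genes called in either direction: Pfkp by 0.57 ± 0.11 on the log2 scale, Tpi1 by 0.48 ± 0.11, Mif by 0.45 ± 0.11 and Ndrg1 by 0.82 ± 0.21. In this cluster monocyte markers summed to 923 to 959 CPM in RT and 505 to 664 CPM in Sham, and interferon-stimulated genes to 855 to 1121 CPM and 373 to 429 CPM, and their part was not tested. With this cluster added to the macrophage-like class, a choice made after seeing the data, 13 members rose and 2 fell (Hk2 and Bnip3l), against 8.25% of genes called (4.58% higher, 3.66% lower).

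**Figure D4:**
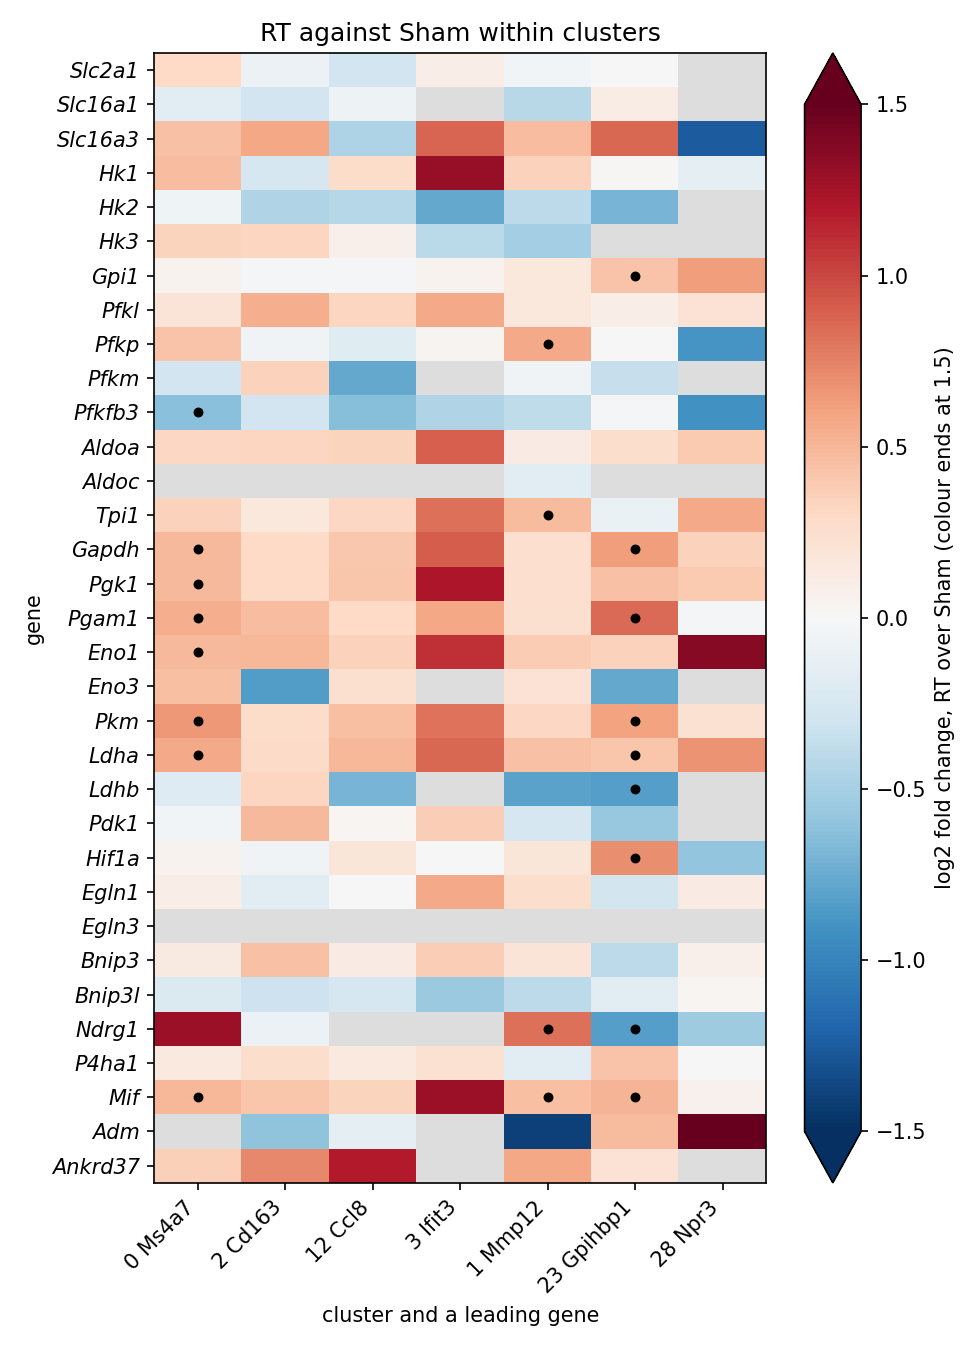
Log2 fold change of the members, RT against Sham, within single macrophage-like clusters, the Mmp12 cluster and the endothelial-like clusters, with a dot where a gene was called and grey where it was not tested. Mif was called higher in the Ms4a7 cluster (0.50), the Mmp12 cluster (0.45) and the Gpihbp1 cluster (0.51).

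In endothelial-like cells RT against Sham gave 6 members that rose and 0 that fell among 31 tested (Hk3 and Aldoc did not pass the filter): Ldha, Pgam1, Hif1a, Pkm, Gpi1 and Mif. Over 11212 genes 4.33% were called, 2.88% higher and 1.44% lower. Lower glycolysis and lactate dehydrogenase had 3 of 9 called and a median log2 fold change of 0.49, against -0.01 over all genes. The 31 members divided almost evenly by sign, with 16 positive and a median of 0.05. The upper pathway had 1 of 9 called, oxygen sensing 2 of 10 and the transporters 0 of 3.

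Hif1a (ENSMUSG00000021109, chromosome 12, 73901375 to 73947530 on the plus strand), the oxygen-regulated HIF subunit, had 114 and 117 CPM in the RT libraries against 86.0 and 77.9 CPM in the Sham libraries. Its log2 fold change was 0.53 ± 0.11 (edgeR adjusted p = 0.0414). Ldha had 461 and 466 CPM in the RT libraries against 313 and 335 CPM in the Sham libraries, for a log2 fold change of 0.55 ± 0.10 (adjusted p = 0.0287). The libraries of the groups did not overlap for either gene.

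Pgam1 had 162 and 151 CPM in the RT libraries and 103 and 105 CPM in the Sham libraries, with a log2 fold change of 0.62 ± 0.11 (adjusted p = 0.0289). Pkm (ENSMUSG00000032294, chromosome 9, 59656368 to 59679375 on the plus strand) had 347 and 319 CPM against 205 and 251 CPM, or 0.57 ± 0.12 (adjusted p = 0.0436). These 2 genes bracket the enolase step. Eno1 itself was not called in endothelial-like cells, where its level was lower than in macrophage-like cells in every library. The macrophage-like minus the endothelial-like log2 fold change of Eno1 was 0.04 ± 0.14 (edgeR adjusted p = 0.969).

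Gpi1 (ENSMUSG00000036427, chromosome 7, 34201330 to 34230336 on the minus strand), which converts glucose 6-phosphate to fructose 6-phosphate, had 261 and 261 CPM in the RT libraries against 182 and 200.5 CPM in the Sham libraries, for a log2 fold change of 0.48 ± 0.10 (adjusted p = 0.0459). Mif had 195 and 169.5 CPM against 132 and 131 CPM, for a log2 fold change of 0.50 ± 0.11 (adjusted p = 0.0459). Both passed narrowly, and both separated the groups.

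Of the members that just missed the call, Ndrg1 and Ldhb were lower and Gapdh was higher. Ndrg1 (ENSMUSG00000005125, chromosome 15, 66929318 to 66969640 on the minus strand) had 111 and 179 CPM in the RT libraries against 338 and 256 CPM in the Sham libraries, for a log2 fold change of -0.99 ± 0.24 (adjusted p = 0.0589). Ldhb had 31.8 and 31.9 CPM against 45.3 and 50.8 CPM (-0.56 ± 0.14, adjusted p = 0.0675). Gapdh had 786 and 654 CPM against 457 and 540.0 CPM (adjusted p = 0.0589). None of these was called, and although the groups did not overlap, that is no test with 2 libraries a side. The RT libraries differed most from each other for Ndrg1.

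Within the Gpihbp1 and Fabp4 cluster, which held most endothelial-like cells (1619 of 2079) and carries genes of capillary endothelium, 7 of 30 members rose and 2 fell, against 8.0% of genes called (4.4% higher, 3.6% lower). Pgam1 rose by 0.85 ± 0.13 on the log2 scale (edgeR adjusted p = 0.00304), Hif1a by 0.69 ± 0.14 (adjusted p = 0.0106) and Pkm by 0.61 ± 0.11 (adjusted p = 0.00847). Gapdh, Mif, Gpi1 and Ldha rose too. The fallers were Ldhb at -0.83 ± 0.16 (adjusted p = 0.0106) and Ndrg1 at -0.83 ± 0.19 (adjusted p = 0.0200). In the same cluster cycling markers summed to 248 to 312 CPM in the RT libraries and 61.4 to 114 CPM in the Sham libraries, and 6 of 9 rose. Cardiomyocyte genes summed to 569 to 686 CPM and 1120 to 1377 CPM, with 9 of 10 called lower, and mural markers to 175 to 233 CPM and 352 to 370 CPM, with 3 of 4 tested called lower (Rgs5, Abcc9 and Acta2). None of the genes of these lists was at 0 in every library, and their part in the members' changes was not tested. The smaller cluster led by Cytl1, Npr3 and Vwf had no member called by edgeR among 22 tested, against 0.0208% of genes called. It had 3 members at an unadjusted p under 0.05, against 495 of 4818 genes.

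The count for endothelial-like cells was 7 without RT replicate 2, 1 without RT replicate 1 and 0 without any other library. It was 3 with another size factor and 2 with doublets kept or with the replicate number as a block. With only the 4 RT and Sham libraries, or with cells limited to 5% mitochondrial UMIs, it was 0. The share of all genes called under each of these settings is not given, so these counts are not a result about the members alone. Cycling markers in endothelial-like cells summed to 232 to 309 CPM in the RT libraries and 87.5 to 118 CPM in the Sham libraries, and fibroblast markers to 179 to 308 CPM and 489 to 960 CPM. Cardiomyocyte genes summed to 505 to 659 CPM and 876 to 1039 CPM, and 4 of 10 fell, with none of these lists' genes at 0 in every library. Of the endothelial markers, Cytl1, Ptprb and Flt1 were called lower. The Cytl1 cluster gave 190661 and 499452 UMIs of this class in the Sham libraries and 115660 and 286605 in the RT libraries. A small cluster led by Ccl21a and Mmrn1 gave 295743 and 115910 UMIs in the Sham libraries and 0 and 176223 in the RT libraries. The part of these shifts in the members' changes was not tested.

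**Figure D5:**
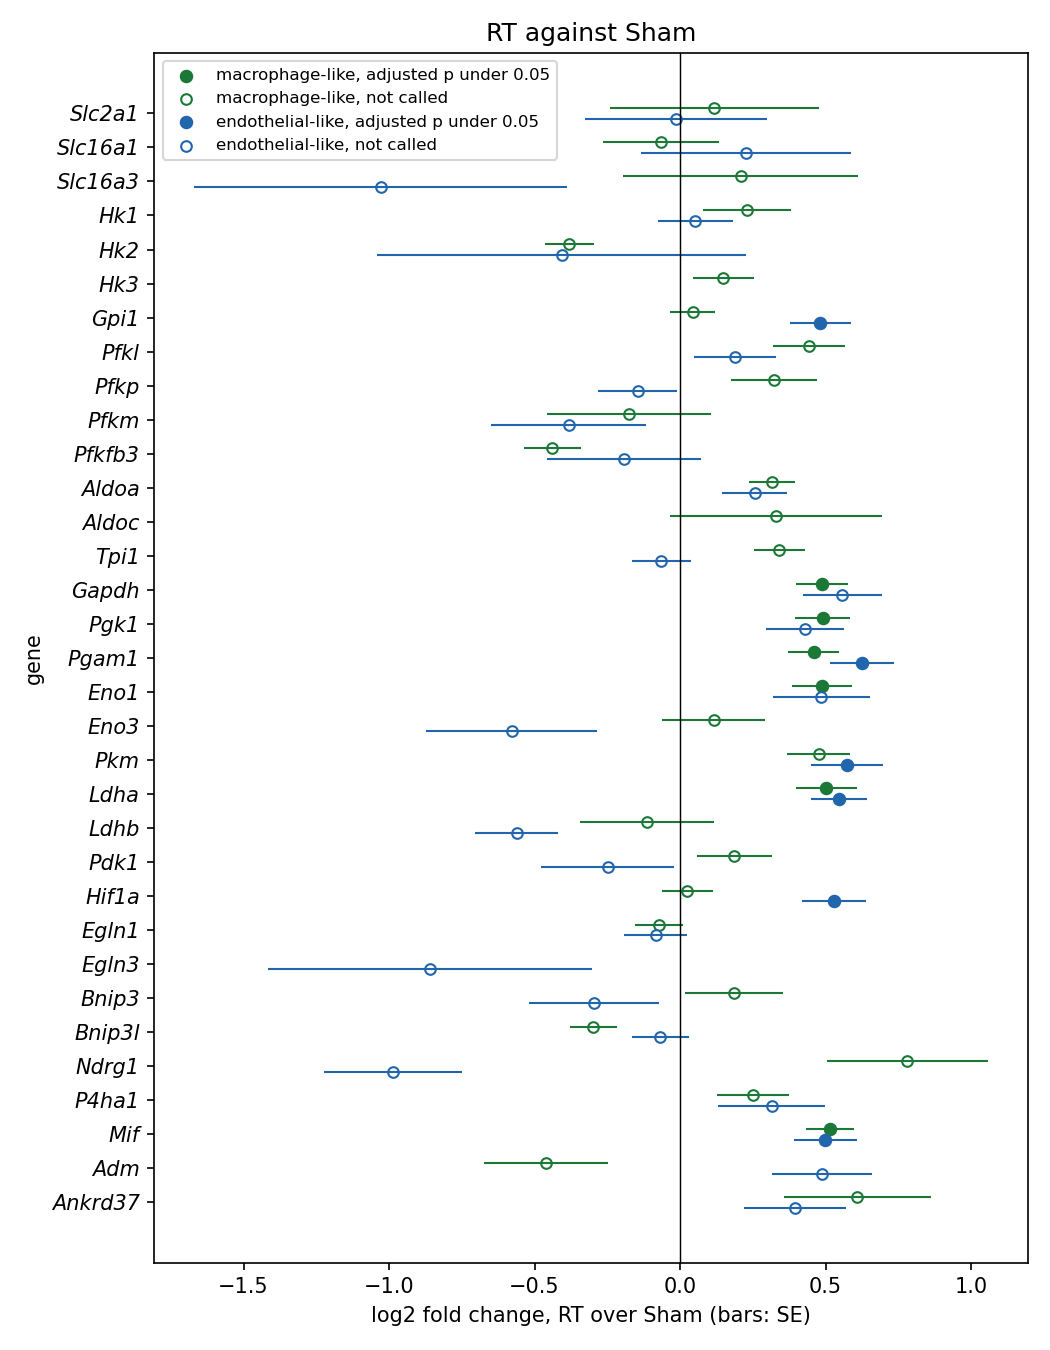
Log2 fold change of each member, RT against Sham, in macrophage-like and in endothelial-like cells, with bars for the standard error and filled points for called genes. Ldha, Pgam1 and Mif were called higher in both classes, and Ndrg1 lay at 0.78 in macrophage-like and at -0.99 in endothelial-like cells.

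Whether irradiation acted differently in the classes was tested directly, as the macrophage-like minus the endothelial-like log2 fold change with library as a block. Of the 33 members 1 was called, against 1.13% of 13606 genes: Ndrg1, at 1.77 ± 0.30 (edgeR adjusted p = 0.0281). Its macrophage-like levels were 4.62 and 6.82 CPM in the RT libraries and 2.94 and 3.73 CPM in the Sham libraries, from 24 to 84 UMIs per library over the 6 libraries. Its endothelial-like levels, given above, came from 219 to 1054 UMIs per library. Ndrg1 was thus higher after irradiation in macrophage-like cells and lower in endothelial-like cells on average. Neither change passed the threshold in its own class in the main fit, while some alternative settings called it there. Over the alternatives its log2 fold change ran from 0.31 to 1.27 in macrophage-like and from -1.40 to -0.67 in endothelial-like cells. The difference was 1.42 without Sham replicate 1 (adjusted p = 0.127), 1.66 without RT replicate 1 (adjusted p = 0.0542), 1.90 without RT replicate 2 (adjusted p = 0.0576) and 1.60 with cells limited to 5% mitochondrial UMIs (adjusted p = 0.190).

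For the members that rose in both classes or in macrophage-like cells the differences lay near 0, at -0.01 ± 0.12 for Ldha, 0.05 ± 0.12 for Mif, -0.13 ± 0.13 for Pgam1, -0.03 ± 0.12 for Gapdh and 0.10 ± 0.13 for Pgk1. Hif1a, called in endothelial-like cells alone, had a difference of -0.47 ± 0.13 (adjusted p = 0.146), Gpi1 one of -0.40 ± 0.13 (adjusted p = 0.215) and Tpi1 one of 0.44 ± 0.13 (adjusted p = 0.183), so none of these is shown to differ between the classes. Slc16a3 differed by 1.23 ± 0.31 (adjusted p = 0.112). Its endothelial-like level was 9.59 and 20.4 CPM in the RT libraries and 10.8 and 52.5 CPM in the Sham libraries. The Sham library at 52.5 CPM also carried 6139 CPM of neutrophil markers, against 594 to 728 CPM in the other RT and Sham libraries. That library enters every endothelial-like comparison with Sham. Neutrophil-like cells were also the highest class for Pkm, Gpi1 and Hif1a, which were called in endothelial-like cells. The part of neutrophil RNA in those calls was not tested.

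The labelled STING KO was addressed by TmemRT against RT, both irradiated. No member was called by edgeR in macrophage-like cells (0 of 32, against 0.806% of genes) or in endothelial-like cells (0 of 31, against 0.0357%). DESeq2 likewise called none in either class for this comparison, and its calls for the comparisons with Sham are not given here. In macrophage-like cells 1 member had an unadjusted edgeR p under 0.05, against 2064 of 12165 genes. In endothelial-like cells 3 members did, against 1169 of 11212 genes. Log2 differences were negative for 22 of 32 members in macrophage-like cells (median -0.11) and 16 of 31 in endothelial-like cells (median -0.0047). The member nearest to a call in macrophage-like cells was Adm, at 2.82 and 2.42 CPM in the TmemRT libraries against 4.34 and 4.70 CPM in the RT libraries, a log2 difference of -0.89 ± 0.23 (adjusted p = 0.129). The call was not reached, and counts were low, with 31 to 64 UMIs over the 6 libraries. In endothelial-like cells Hif1a had 144 and 145 CPM in the TmemRT libraries against 114 and 117 CPM in the RT libraries, a log2 difference of 0.25 ± 0.10 (adjusted p = 0.465). The test of the difference between classes called 0 of 33, against 0.0% of genes. It had 3 members at an unadjusted p under 0.05, against 771 of 13606 genes.

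In the same comparison in macrophage-like cells, 7 of 11 interferon-stimulated genes fell, with summed levels of 562 to 901 CPM in TmemRT and 1687 to 1704 CPM in RT. Mif was at 162 and 175 CPM in the TmemRT libraries against 150.1 and 145 CPM in RT, Gapdh at 839 and 889 CPM against 835 and 854 CPM, and Ldha at 252 and 274 CPM against 262 and 270.1 CPM. CPM is set by library totals. The test scales by its own size factors instead. On the log2 scale, CPM ratios of TmemRT against RT ran 0.10 above the fitted values in macrophage-like cells. In endothelial-like cells they ran 0.07 above them.

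TmemRT against Sham differs in both genotype label and irradiation, and it shares its libraries with the comparisons above. In macrophage-like cells 3 members rose and 3 fell, against 3.21% of genes called (1.27% higher, 1.93% lower). Mif rose by 0.61 ± 0.08 on the log2 scale (edgeR adjusted p = 0.0118), Pgk1 by 0.49 ± 0.09 (adjusted p = 0.0333) and Gapdh by 0.42 ± 0.09 (adjusted p = 0.0487). Hk2 had 59.7 and 65.6 CPM in the TmemRT libraries against 84.9 and 83.0 CPM in the Sham libraries and fell by 0.52 ± 0.08 on the log2 scale (adjusted p = 0.0193). Pfkfb3 had 40.2 and 37.9 CPM against 58.6 and 50.2 CPM and fell by 0.57 ± 0.10 (adjusted p = 0.0219). Adm had 2.82 and 2.42 CPM against 6.0 and 6.46 CPM and fell by 1.35 ± 0.21 (adjusted p = 0.0192). The fallers were thus inducible genes of the upper pathway and adrenomedullin, and the risers included 2 lower glycolytic enzymes. In the same cells 12 of 20 genes of dissociation stress fell, with sums of 17477 to 19223 CPM in TmemRT and 25948 to 26664 CPM in Sham. Monocyte markers summed to 444 to 508 CPM in TmemRT and 86.3 to 92.0 CPM in Sham, and of 11 tested Ccr2 rose by 2.83 and Ly6c2 by 2.20 on the log2 scale. Cardiomyocyte genes summed to 215 to 216 CPM and 329 CPM in both Sham libraries, and 7 of 10 fell. No gene of these lists was at 0 in every library, and their part in the members' changes was not tested.

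In endothelial-like cells 5 members rose and 1 fell in TmemRT against Sham, against 6.17% of genes called (3.48% higher, 2.69% lower). Hif1a had 144 and 145 CPM in the TmemRT libraries against 86.0 and 77.9 CPM in the Sham libraries and rose by 0.78 ± 0.11 (adjusted p = 0.00982). Pgam1, Mif, Pkm and Ldha rose by 0.56 ± 0.11, 0.54 ± 0.11, 0.56 ± 0.12 and 0.41 ± 0.10. Ndrg1 had 156 and 123 CPM in the TmemRT libraries against 338 and 256 CPM in the Sham libraries and fell by 1.13 ± 0.23 (adjusted p = 0.0313). The TmemRT and Sham libraries did not overlap for any of these genes. Cycling markers summed to 373 to 528 CPM in these TmemRT cells and 87.5 to 118 CPM in the Sham ones, and 8 of 9 rose. Fibroblast markers summed to 211 to 216 CPM and 489 to 960 CPM, with 3 of 7 tested called lower (Pdgfra, Dcn and Lum), and mural markers to 123 to 161 CPM and 276 to 280.1 CPM, with Rgs5 called lower of 6 tested. Cardiomyocyte genes summed to 610.0 to 612 CPM and 876 to 1039 CPM, and 4 of 10 fell. No gene of these lists was at 0 in every library, and their part in the members' changes was not tested. The counts in both classes depended on single libraries, and the share of all genes called without each library is not given.

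Neighbouring pathways were read from lists of related genes. Of all genes tested, RT against Sham, 3.71% were called in macrophage-like cells and 4.33% in endothelial-like cells. In macrophage-like cells, RT against Sham, 1 of 12 other glycolysis genes rose: Slc2a6, a hexose transporter of macrophages, with 15 and 15.8 CPM against 6.0 and 7.06 CPM (1.23 ± 0.21, adjusted p = 0.0228). Of the 7 genes of the pentose phosphate pathway, which makes NADPH from glucose 6-phosphate, all were positive and 1 rose, Pgd, by 0.51 ± 0.09 (adjusted p = 0.0327). Of 18 genes of pyruvate entry and the citric acid cycle 0 were called, with 4 at an unadjusted p under 0.05 and a median of -0.04. Among all genes 2537 of 12165 were at an unadjusted p under 0.05. Of the 10 HIF subunits and sensors tested, Arnt, the partner of the alpha subunits, fell by 0.49 ± 0.11 (adjusted p = 0.0496). Of 21 other hypoxia targets Hmox1, the heme-degrading enzyme, rose by 0.45 ± 0.10 (adjusted p = 0.0490) and Mxi1 fell by 1.01 ± 0.21 (adjusted p = 0.0415).

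In endothelial-like cells, RT against Sham, Epas1, the HIF alpha subunit that marks endothelium, had 359 and 492 CPM in the RT libraries against 761 and 669.5 CPM in the Sham libraries. It fell by 0.71 ± 0.15 (adjusted p = 0.0432), while Hif1a rose in the same cells. The other called genes of these lists were Tkt of the pentose phosphate pathway (0.63 ± 0.13), Idh3a of the citric acid cycle (0.86 ± 0.19), Hmox1 (1.10 ± 0.23) and Cxcr4, a chemokine receptor (-1.0 ± 0.19). These were 1 of 7, 1 of 18 and 2 of 23 genes tested in their lists, 0 of 9 other glycolysis genes were called, and Epas1 was the 1 of 10 HIF subunits and sensors.

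In TmemRT against RT the neighbouring lists gave 2 calls in macrophage-like cells. Of all genes tested there 0.806% were called, and 0.0357% in endothelial-like cells. Cited2, which competes with HIF for its coactivator, averaged 268 ± 6.60 CPM in TmemRT and 424 ± 46.2 CPM in RT (SD, n = 2 each) and fell by 0.76 ± 0.10 (edgeR adjusted p = 0.0287). Hmox1 had 479.8 and 498 CPM against 669 and 797 CPM and fell by 0.69 ± 0.10 (edgeR adjusted p = 0.0343). No gene of these lists was called in endothelial-like cells, where Cited2 had 58.1 and 61.8 CPM in the TmemRT libraries against 76.7 and 106 CPM in the RT libraries.

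The remaining 8 classes gave no called member, RT against Sham or TmemRT against RT, in edgeR's test. For RT against Sham the members at an unadjusted p under 0.05 numbered 10 of 32 tested in cycling cells, 5 of 27 in neutrophil-like and 5 of 18 in NK cell-like cells. They numbered 4 of 27 in B cell-like, 3 of 29 in monocyte-like, 2 of 22 in T cell-like, and 1 each in dendritic cell-like and fibroblast-like cells. Among all genes tested those were 1408 of 10884 in cycling, 434 of 6553 in neutrophil-like, 441 of 6426 in NK cell-like and 898 of 8877 in B cell-like cells. In monocyte-like, T cell-like, dendritic cell-like and fibroblast-like cells they were 623 of 8703, 454 of 6225, 500 of 8207 and 442 of 8293. The share of all genes called was 0.276% in cycling, 0.103% in monocyte-like, 0.0321% in T cell-like, 0.0121% in fibroblast-like and 0.0113% in B cell-like cells, and 0.0% in the other 3 classes. The median log2 fold change of the members was -0.34 in neutrophil-like cells, with 20 of 27 negative, and 0.23 in cycling cells, with 23 of 32 positive. In the other classes it lay between 0.04 and 0.20. For TmemRT against RT those medians were 0.26 in neutrophil-like cells (23 of 27 positive) and 0.05 in cycling cells (22 of 32 positive). They were -0.22 in B cell-like (22 of 27 negative), -0.20 in NK cell-like (15 of 18 negative) and -0.19 in monocyte-like cells (24 of 29 negative). In T cell-like, dendritic cell-like and fibroblast-like cells they were -0.04, -0.01 and 0.02. Over all genes tested the medians of these classes lay between -0.01 and 0.003. In TmemRT against RT the share of all genes called was 1.24% in NK cell-like, 0.908% in monocyte-like, 0.248% in B cell-like, 0.244% in dendritic cell-like, 0.183% in neutrophil-like, 0.169% in fibroblast-like, 0.145% in T cell-like and 0.119% in cycling cells. Whether the neutrophil-like values differ from those of macrophage-like cells was not tested.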

How the data were processed

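Single-cell 3' libraries of CD45+ heart cells were counted by the authors. The deposited files hold unnormalised UMI counts per gene and barcode, and per the submitters' processing notes Cell Ranger 5.0.0, Seurat 3 (role not given) and mm10 were used. Gene positions are from GENCODE vM21 (GRCm38) and promoters from RefSeq GRCm38.p6.

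Cells with at least 200 genes and at most 10% mitochondrial UMIs were kept, and the cells with the highest Scrublet doublet scores were removed at 0.8% per 1000 cells. All 6 libraries were clustered together with scanpy 1.11.5 (2000 variable genes, 30 principal components, 15 neighbours, Leiden resolution 1). A cluster was named from fixed markers when at least 3 were 1.5 times raised. Clusters with a second lineage at a ratio of 0.5 or more were set aside as mixed (3443 cells), except the cycling cluster, and 3446 cells stayed unnamed. These last details were chosen after seeing the clusters.

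UMIs were summed per class and library and tested with edgeR 4.0.16 (filterByExpr, TMM, quasi-likelihood, 3 group means, 3 residual degrees of freedom) with Benjamini-Hochberg adjustment over all genes, calling adjusted p under 0.05. The difference between classes used library as a block. The procedure was tested on simulated data. DESeq2 1.42.0 and the other settings of the closing section were alternatives. CPM is a gene's UMIs in a class and library scaled to 1e6 UMIs of that class. Genes named are the 33 members, with the values of called members and of the isoenzyme families in every library, and from each other list at most 4 called genes per comparison by absolute log2 fold change. The members and lists were chosen with earlier results of these data known. The labels do not tie libraries to separate animals, so p-values reflect only how far these libraries vary among themselves, possibly for technical reasons. No intervals on single counts are given, and UMI totals set the counting error.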

Additional observations from a re-analysis of the deposited data

Results flagged for a closer look

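The only result that met a rule for a closer look was Ndrg1, where the effect of irradiation differed between cell classes by a test of the difference itself. The macrophage-like minus the endothelial-like log2 fold change of RT against Sham was 1.77 ± 0.30 (SE, edgeR adjusted p = 0.0281). The macrophage-like level was 4.62 and 6.82 CPM in the RT libraries against 2.94 and 3.73 CPM in the Sham libraries, higher in both. The endothelial-like level was 111 and 179 CPM in the RT libraries against 338 and 256 CPM in the Sham libraries, lower in both. Groups of 2 libraries are too small for a search for outlying samples.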

How the results depend on the processing

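Of 50 log2 fold changes of single members recomputed under the alternatives, 6 changed direction under at least 1, and none of the 6 was called as reported. The difference between classes for Adm (-0.91) was 0.41 with cells limited to 5% mitochondrial UMIs. That for Ldha (-0.0059) was 0.0144 at Leiden resolution 0.5, 0.0198 with doublets kept and 0.0645 with the Mmp12 cluster, and -0.0806 to 0.0664 when 1 library was left out. That for Gapdh (-0.0315) was 0.0508 at 5%, 0.0330 with doublets kept and -0.147 to 0.0502 without 1 library. That for Pgam1 (-0.129) was 0.0277 at 5% and 0.0550 with doublets kept, and that for Mif (0.0534) was -0.0964 at 5%. The macrophage-like Hif1a change, RT against Sham (0.0246), was -0.110 at 5% and -0.0372 to 0.0775 without 1 library. The counts of called members moved more, and the cause was not tested. The share of all genes called under each setting is not given beside the counts below, so they are not a result about the members alone. In macrophage-like cells, RT against Sham (6), they were 2 when the TmemRT libraries were left out of the fit, 12 with no low-count filter, 0 at 5% mitochondrial UMIs and 15 with the Mmp12 cluster, an alternative chosen after seeing the data. TmemRT against RT (0) gave 1 with no filter (Adm), and TmemRT against Sham (6) gave 10 with no filter, 0 at 5% and 10 with the Mmp12 cluster. In endothelial-like cells, RT against Sham (6), they were 13 with no filter, 3 with RLE size factors, 2 with doublets kept, 0 with the 4 libraries and 0 at 5%, and TmemRT against Sham (6) gave 12 with no filter and 0 at 5%. The difference between classes (1) was 3 with no filter or with doublets kept (Ndrg1, Slc16a3 and Adm) and 2 with the Mmp12 cluster (Ndrg1 and Pfkp), and at 5% the 1 call was Slc16a3 (2.84). The other classes together (0) gave 6 for RT against Sham and 7 for TmemRT against RT with no filter. The macrophage-like Hk2 share of 54.5% was 56.7% with doublets kept and 56.8% when clustered without the members, and the endothelial-like Ldhb share of 8.82% was 8.32% with doublets kept and 7.70% at 5%. Leaving out 1 library gave 0 to 4 (RT against Sham) and 0 to 5 (TmemRT against Sham) in macrophage-like cells, 0 to 7 and 0 to 9 in endothelial-like cells, 0 to 1 for the difference between classes, and 0 to 1 and 0 to 5 (TmemRT against RT) in the other classes.

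Over all genes tested, deviations of same-numbered libraries correlated at 0.08, 0.23 and 0.16 in macrophage-like and 0.04, -0.08 and 0.07 in endothelial-like cells. The labels name no batch, and these correlations cannot tell whether same-numbered libraries share one. With the replicate number as a block the counts for RT against Sham were 9 in macrophage-like and 2 in endothelial-like cells. They were 2 for the difference between classes (Ndrg1 and Slc16a3) and 1 in the other classes (Aldoa in cycling cells). TmemRT against RT gave 1 in the other classes (Ldha in B cell-like cells). The share of all genes called in these block fits is not given either.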
